A study of Mus musculus with 12 samples.

Results

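The metabotropic glutamate receptors described here are Grm2, Grm3, Grm4, Grm5, Grm7, and Grm8, chosen by their gene symbols as 6 of the 19312 genes in the table. RNA was sequenced from 12 male C57BL/6N mice, with 3 mice in each of 4 groups. WT-Veh and WT-Mem mice were wild-type, and KO-Veh and KO-Mem mice lacked exons 6 and 7 of Shank2 on both alleles (Shank2-KO), which encodes an excitatory postsynaptic scaffold. WT-Mem and KO-Mem mice received 20 mg/kg of memantine, a blocker of NMDA-type glutamate receptors, orally, in 2 doses per day, between postnatal days 7 and 21, and WT-Veh and KO-Veh mice received 0.1% saccharin, the vehicle, on the same schedule. All mice were sampled at postnatal day 25, so the drug had been stopped before the tissue was taken, and each brain was sequenced without pooling. The deletion is constitutive and not limited to a cell type, and the litter of each mouse is not given in the sources used here. Whole brain is the tissue in the labels, whereas the methods name forebrain with the cerebellum and the brain stem beneath it removed.

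Metabotropic glutamate receptors are G protein-coupled receptors that sense glutamate released at synapses and act more slowly than the ion-channel receptors. Group I receptors, represented here by Grm5 (mGluR5), couple to Gq proteins and phospholipase C, lie mostly at the rim of the postsynaptic site, and are tied to Shank scaffolds through Homer proteins. Group II receptors (Grm2 and Grm3) and group III receptors (Grm4, Grm7, and Grm8) couple to Gi/o proteins, lower cyclic AMP, and mostly restrain transmitter release from axon terminals, and Grm3 is also prominent in astrocytes. Grm5 is thus linked to the scaffold altered in these mice, and the comparison of the 4 groups asks whether the transcripts of this family differed with the Shank2 deletion, with early memantine, or with both.

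The values are DESeq2-normalized read counts, and a log2 fold change is the difference between group means of log2(value + 1). A gene was called when its adjusted p in limma, a linear model fitted over all genes tested, was under 0.05. Grm3 was the member that was called, in 2 of 9 comparisons, and it was lower in Shank2-KO mice in both. In KO-Mem against WT-Veh mice (KO-M/WT-V), 1 of 6 members was called, beside 3.37% of all genes tested (2.05% called lower), and in knockout against wild-type mice over both treatments 1 of 6 was called, beside 10.8% of all genes (5.91% called lower). In the comparison of KO-Veh with WT-Veh mice (Veh-K/W) no member was called, beside 0.0283% of all genes (1 of 6 at an unadjusted p under 0.05, beside 14.4%), and in that of KO-Mem with WT-Mem mice (Mem-K/W) no member was called, beside 0.068% (3 of 6 at an unadjusted p under 0.05, beside 21.0%). No member was called in WT-Mem against WT-Veh mice (WT-M/V, 0.0114% of all genes) or in WT-Mem against KO-Veh mice (WT-M/KO-V, 0.0227%), and in each of these 1 of 6 had an unadjusted p under 0.05, beside 3.97% and 8.94% of all genes. In KO-Mem against KO-Veh mice (KO-M/V) and in memantine against vehicle over both genotypes, limma called 0.0% of all genes at the adjusted threshold. At an unadjusted p under 0.05 there were 1573 of 17707 genes (8.88%) in KO-M/V and 1519 of 17655 (8.6%) in memantine over both genotypes, with 4 and 2 of the 6 members among them. The genotype by memantine interaction, KO-M/V minus WT-M/V, also called 0.0% of genes, with 840 of 17655 genes (4.76%) and 2 of 6 members at an unadjusted p under 0.05. These comparisons share mice, so their values for a member are not independent of each other.

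Groups were also compared by whether the 3 mice of one all lay on one side of the 3 mice of the other. In KO-M/V, 4 of 6 members did not overlap between the groups (Grm2, Grm3, Grm4, and Grm8, all lower in KO-Mem), beside 13.9% of all genes tested, or 6.82% when only lower genes are counted. In Mem-K/W, 3 of 6 did not overlap (Grm2, Grm4, and Grm8, all lower in KO-Mem), beside 26.2% of all genes, or 13.5% counting lower ones. In KO-M/WT-V, 2 of 6 did not overlap (Grm3 and Grm8, both lower in KO-Mem), beside 31.1% of all genes, or 15.6% counting lower ones, so the share of members was close to that of all genes. In Veh-K/W (20.4% of all genes), WT-M/V (9.34%), and WT-M/KO-V (14.9%), 0 of 6 members were without overlap. KO-Mem replicate 1 held the lowest value of the 12 mice for Grm2, Grm3, Grm4, and Grm8. Without it, the members without overlap were 5 of 6 in KO-M/V, 3 of 6 in Mem-K/W, and 2 of 6 in KO-M/WT-V, beside 19.8%, 30.8%, and 35.9% of all genes. Leaving out a mouse cannot make separate groups overlap, so these counts could only stay or rise.

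**Figure D1:**
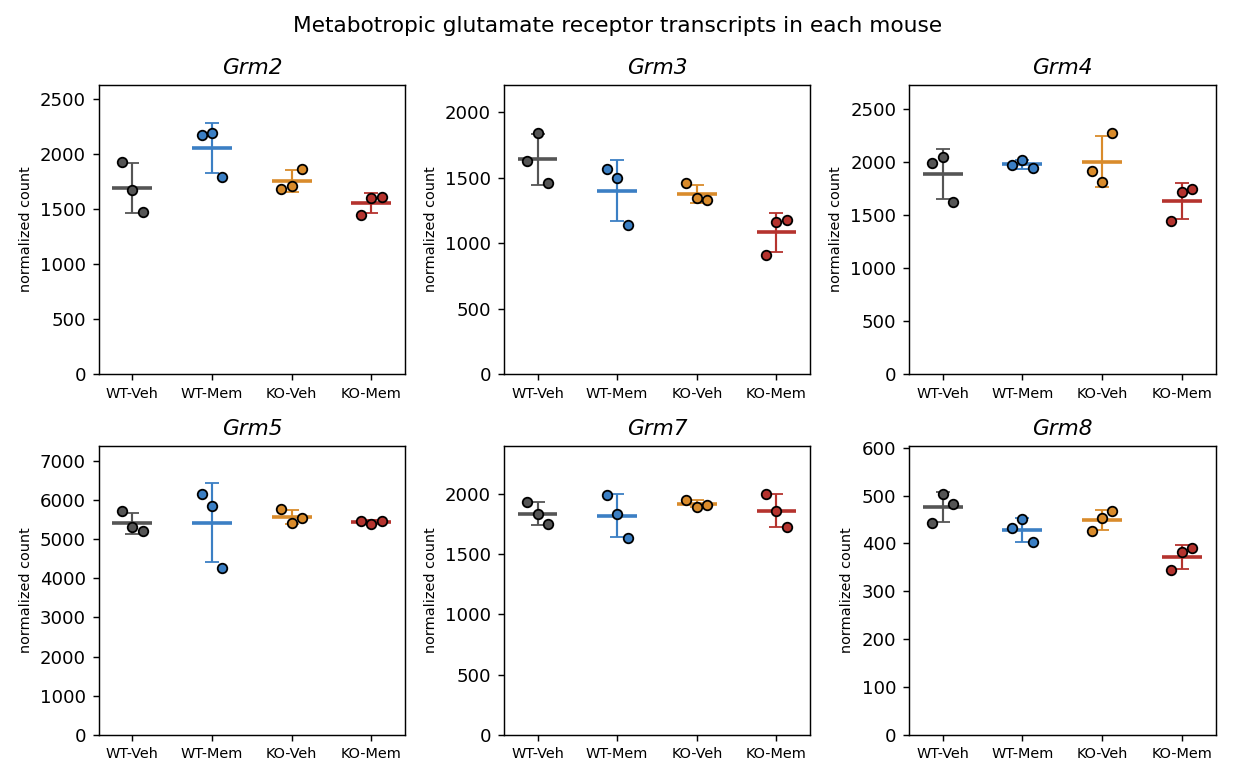
Normalized count (vertical axis, from 0) of each receptor gene in each of the 12 mice, by group. Points are mice in the order of replicates 1, 2, and 3, the horizontal bar is the group mean, and the error bar is the SD of 3 mice. Grm2, Grm3, Grm4, and Grm8 lie lowest on average in KO-Mem mice, whereas the group means of Grm5 and Grm7 are close to each other.

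The 6 genes lie on 5 chromosomes of GRCm38, in GENCODE M21 coordinates. Grm5 spans chr7:87584168-88134907 on the plus strand and Grm7 spans chr6:110645581-111567230 on the plus strand. The other four lie on the minus strand, with Grm2 at chr9:106643095-106656082, Grm3 at chr5:9485541-9725170, Grm4 at chr17:27422387-27521403, and Grm8 at chr6:27275119-28135178. All are protein-coding, and the values count all exons of a gene together. The methods do not state whether the libraries keep strand. They were taken as not stranded, so that reads of a gene and of an antisense gene cannot be told apart where their exons overlap. Such an antisense gene overlaps an exon of Grm7 (Gm20387, mean value 67.7 over the 12 mice) and of Grm2 (Gm28111, not used here).

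A promoter window each of Grm3 and Grm8 is shown because the KO-Mem mice were below the WT-Veh mice without overlap for these members alone. Each window runs from 250 bases before to 50 bases after a RefSeq start (GRCm38.p6) and is written 5′ to 3′ on the minus strand, at chr5:9725303-9725602 for Grm3 and chr6:28135097-28135396 for Grm8, where the most upstream of its 3 RefSeq windows lies. Capitals mark the letters GGGCGG, the core of a GC box.
Grm3: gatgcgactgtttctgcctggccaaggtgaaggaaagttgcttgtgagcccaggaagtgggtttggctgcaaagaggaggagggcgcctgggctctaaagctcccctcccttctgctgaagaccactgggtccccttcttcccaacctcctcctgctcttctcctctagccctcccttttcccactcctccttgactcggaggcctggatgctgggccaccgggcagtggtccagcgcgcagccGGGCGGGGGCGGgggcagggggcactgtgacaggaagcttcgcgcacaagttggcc
Grm8: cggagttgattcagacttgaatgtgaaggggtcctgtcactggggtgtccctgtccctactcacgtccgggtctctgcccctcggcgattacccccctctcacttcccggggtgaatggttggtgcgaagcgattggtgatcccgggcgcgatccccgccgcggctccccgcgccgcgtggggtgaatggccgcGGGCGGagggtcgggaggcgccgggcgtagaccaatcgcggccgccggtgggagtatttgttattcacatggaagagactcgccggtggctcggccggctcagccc
The Grm3 window held 2 adjoining GC boxes and 11 CpG dinucleotides, and the Grm8 window shown held 1 GC box and 33 CpG dinucleotides, where the median of all windows was 7. GGGCGG on either strand occurred in 35.66% of 32851 promoter windows, so its presence does not set these members apart. Neither window shown held the cyclic AMP response letters TGACGTCA (1.79% of all windows), TGACG (20.81%), the AP-1 letters TGACTCA (5.202%), the E-box CACGTG (7.15%), or TATAAA (13.62%), on either strand. The other windows of Grm8, chr6:28134372-28134671 and chr6:28126377-28126676, held 10 and 2 CpG dinucleotides and no GC box, and the first of them held TGACG. RefSeq windows were held for 4 of the 6 members, 7 windows in all.

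Shank2 itself separated the genotypes. Its normalized count lay between 7156 and 8548 in the 6 wild-type mice and between 2706 and 3178 in the 6 knockout mice, with reads remaining in the knockout because exons outside the deletion are counted too. The values of a mouse summed to between 30370000 and 31200000 after the authors' scaling, and they are not depths. The median of the values above 0 and under 1.5 in each mouse lay between 0.872 and 1.13. It was taken as a rough estimate of what 1 read is worth. The window itself keeps it under 1.5, and estimated counts need not be whole reads. Every member lay far above it in every mouse. KO-Veh replicate 3 stood apart from the other 11 mice: 9 of 10 markers of cerebellar granule and Purkinje cells were highest there, and Gabra6, Cbln3, Fat2, and Pcp2 had values of 253.9, 745, 950, and 380, against at most 66.1 in the others. Gabra6 lay between 0 and 12.9 in those 11 mice, but not every listed marker was close to 0 there. Cbln1 lay between 527.6 and 663.2 and Neurod1 between 305.9 and 379.5, and the share of cerebellar tissue in each mouse was not tested. KO-Veh replicate 3 is named below as the mouse with cerebellar transcripts, for its high values of these markers. Fits that use this mouse are also given below without it for the members' fold changes that are printed. KO-Mem replicate 1 was the lowest of the 12 mice for the summed markers of choroid plexus (7014, next 10220), oligodendrocytes (237400), oligodendrocyte precursors (6650), and blood (5454).

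Per kilobase of its longest protein-coding transcript, Grm5 was the most abundant of the 6 transcripts and Grm8 the least. Grm5 had a level of 678 normalized counts per kb (mean of 12 mice, range from 531 to 764.5) and Grm8 had a level of 112 (range from 89.1 to 131). Between them lay Grm3 (452), Grm7 (443), Grm4 (407), and Grm2 (373.5), all in counts per kb. Grm5 exceeded Grm3 in 12 of 12 mice and Grm2 exceeded Grm8 in 12 of 12. The neighbours in between did not keep their order: Grm3 exceeded Grm7 in 6 of 12 mice, Grm7 exceeded Grm4 in 8 of 12, and Grm4 exceeded Grm2 in 10 of 12. With the length of all exons of a gene in place of the longest transcript the order in the middle became Grm3, Grm2, Grm7, and Grm4, with Grm5 still above and Grm8 still below in the mean of 12 mice. On that length Grm5 exceeded Grm3 in 11 of 12 mice, and in the WT-Veh group the mean of Grm3 (538.5) was above that of Grm5 (527). The coefficient of variation over all 12 mice was 18.4% for Grm3, 13.7% for Grm2, 11.8% for Grm4, 10.6% for Grm8, 8.38% for Grm5, and 6.07% for Grm7.

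**Figure D2:**
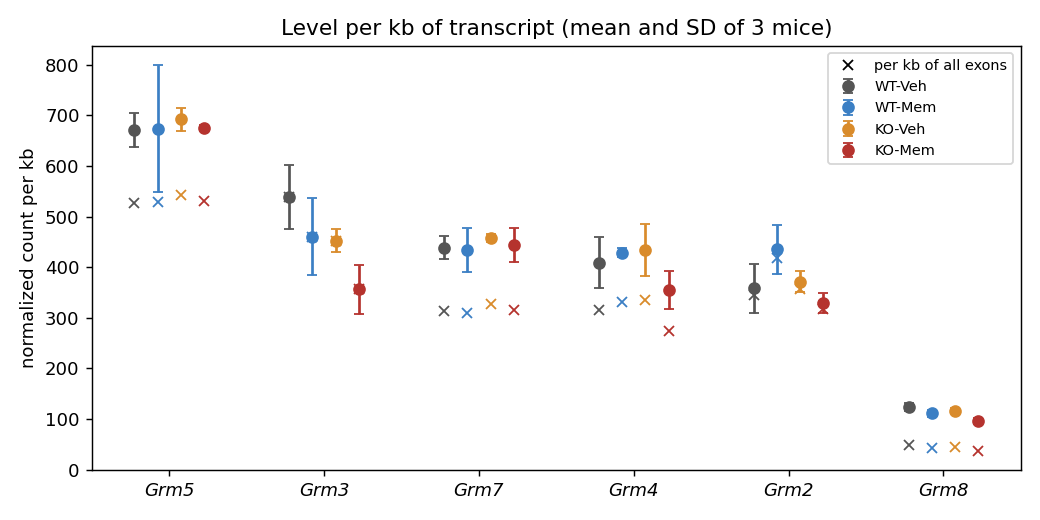
Normalized count per kb (vertical axis, from 0) of the 6 receptor genes in the 4 groups. Circles with error bars are the mean and SD of 3 mice per kb of the longest protein-coding transcript, and crosses are the means per kb of all exons. Grm5 is highest and Grm8 lowest in every group with the transcript length, and Grm3 runs from 538.5 in WT-Veh to 356 in KO-Mem mice.

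Grm3, the group II receptor shared by neurons and astrocytes, was highest in WT-Veh and lowest in KO-Mem mice. WT-Veh mice had normalized counts of 1626, 1842, and 1458 (1642 ± 193, SD, n = 3), and KO-Mem mice had 912, 1162, and 1181 (1085 ± 150, SD, n = 3). The groups did not overlap, and in KO-M/WT-V Grm3 fell by 34.0% (log2 fold change -0.60, SE 0.12, limma adjusted p = 0.0353). In bulk tissue, fewer cells of a type and less RNA per cell cannot be told apart. The call was lost when most single mice were left out: the log2 fold change stayed between -0.68 and -0.48 when each mouse was left out, but the limma adjusted p was between 0.0738 and 0.134 without WT-Veh replicate 1, 2, or 3 or KO-Mem replicate 1 or 2, and 0.012 without KO-Mem replicate 3. The fit without KO-Mem replicate 3 called 2490 genes, against 595 in the main fit.

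The groups that differed from WT-Veh in 1 factor lay between these extremes. WT-Mem mice had Grm3 counts of 1569, 1500, and 1138 (1402 ± 232, SD, n = 3), and KO-Veh mice had 1459, 1349, and 1329 (1379 ± 70.0, SD, n = 3). The highest KO-Veh mouse (1459) was 1 count above the lowest WT-Veh mouse (1458), so these groups overlapped in a single pair of mice. In Veh-K/W the log2 fold change of Grm3 was -0.25 (SE 0.09, limma adjusted p = 0.274), and in KO-M/V, where the groups did not overlap, it was -0.35 (SE 0.10, limma adjusted p = 0.554). Without KO-Veh replicate 3 these were -0.22 (limma adjusted p = 0.596) and -0.38 (adjusted p = 0.582). In Mem-K/W it was -0.37 (SE 0.14, limma adjusted p = 0.179), with WT-Mem replicate 3 below KO-Mem replicates 2 and 3.

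Over both treatments, Grm3 fell by 19.1% in the 6 knockout mice against the 6 wild-type mice (log2 fold change -0.31, 95% interval from -0.49 to -0.12, SE 0.09, limma adjusted p = 0.0398). The call was kept in 4 of 12 fits that left out 1 mouse, with log2 fold changes from -0.36 to -0.25. It was lost without WT-Veh replicate 1 or 2, WT-Mem replicate 1 or 2, KO-Veh replicate 2 or 3, or KO-Mem replicate 1 or 2 (limma adjusted p between 0.0507 and 0.09005). Without KO-Veh replicate 3, the mouse with cerebellar transcripts, the log2 fold change was -0.30 and the limma adjusted p was 0.0827. For memantine over both genotypes the log2 fold change of Grm3 was -0.29 (95% interval from -0.48 to -0.11, limma adjusted p = 0.418), and -0.30 (adjusted p = 0.525) without KO-Veh replicate 3. For the interaction it was -0.12 with a 95% interval from -0.50 to 0.27, and -0.14 without that mouse.

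**Figure D3:**
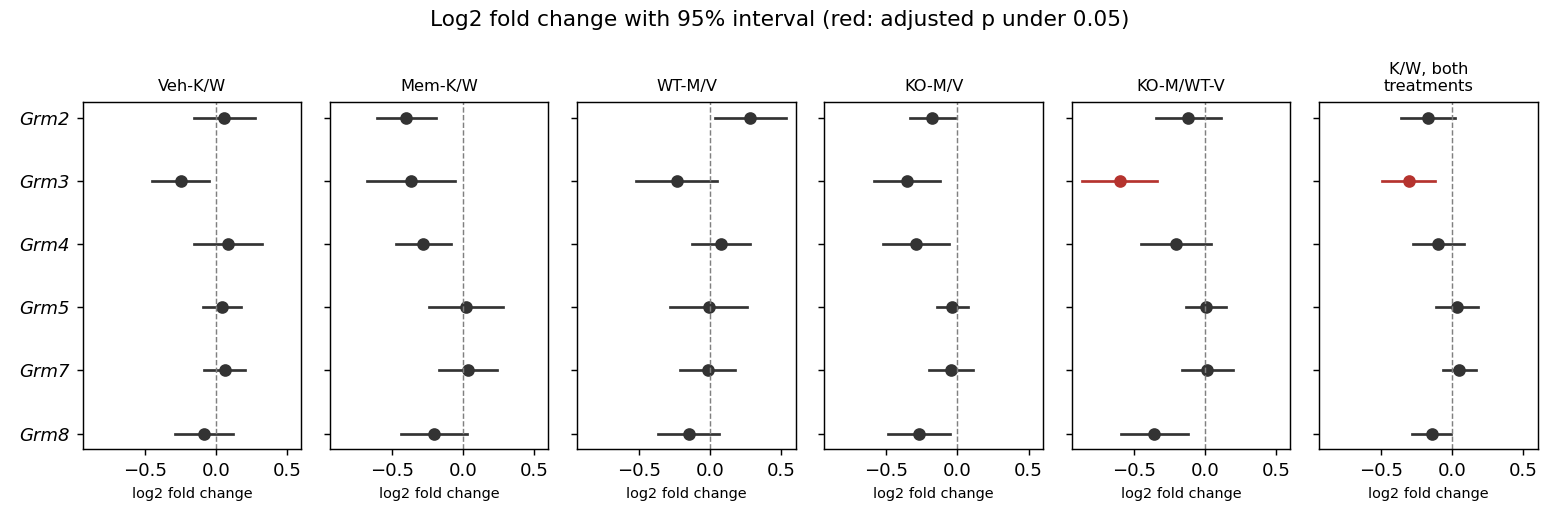
Log2 fold change (horizontal axis) of each receptor gene in 6 comparisons, with points for the estimate and lines for its 95% interval from limma. Red marks an adjusted p under 0.05 over all genes tested, which holds for Grm3 in KO-M/WT-V (-0.60) and in knockout against wild-type mice over both treatments (-0.31), and intervals are not adjusted for the number of genes.

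Some markers of glia, blood, vessels, and neurons were also lower in the comparisons that called Grm3. Of all genes tested, 5.91% were called lower in knockout mice over both treatments and 2.05% in KO-M/WT-V. Of 7 astrocyte markers, 3 were called lower in knockout mice over both treatments: Aqp4, the astrocyte water channel (log2 fold change -0.56, limma adjusted p = 0.00516), S100b, a calcium-binding protein (-0.37, adjusted p = 0.0118), and Gja1, the gap junction protein connexin 43 (-0.22, adjusted p = 0.0389). The other four, Gfap, Aldh1l1, Slc1a3, and Aldoc, were not called, and Slc1a3 had a log2 fold change of 0.11 (limma adjusted p = 0.157). The summed level of the 7 markers lay between 55230 and 60750 in WT-Veh, 54970 and 57860 in WT-Mem, 52310 and 55220 in KO-Mem, and 55780 and 57170 in KO-Veh mice. In KO-M/WT-V, 2 of 7 were called lower, Aqp4 (-0.88, limma adjusted p = 0.0243) and S100b (-0.61, adjusted p = 0.0319). Of 6 oligodendrocyte markers, 5 were called lower in each of the same comparisons, with sums from 329100 to 407700 in WT-Veh and from 237400 to 280500 in KO-Mem mice. Of 4 blood markers, 3 were called lower in both, with sums from 18310 to 24700 in WT-Veh and from 5454 to 11820 in KO-Mem mice. Of 5 endothelial markers, 4 were called lower in knockout mice over both treatments and 0 in KO-M/WT-V. Over both treatments, 1 of 5 microglial markers and 1 of 4 markers of oligodendrocyte precursors were called lower, and of 7 markers of GABAergic interneurons 3 were called higher and 1 lower. In KO-M/WT-V, 1 of these 7 was called lower. Of 8 markers of cortical excitatory neurons, 1 was called lower over both treatments and 0 in KO-M/WT-V. The called one was Rorb (log2 fold change -0.22, limma adjusted p = 0.0406). No marker of these lists was at 0 in all mice, and the part of these cells in the Grm3 result was not tested.

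**Figure D4:**
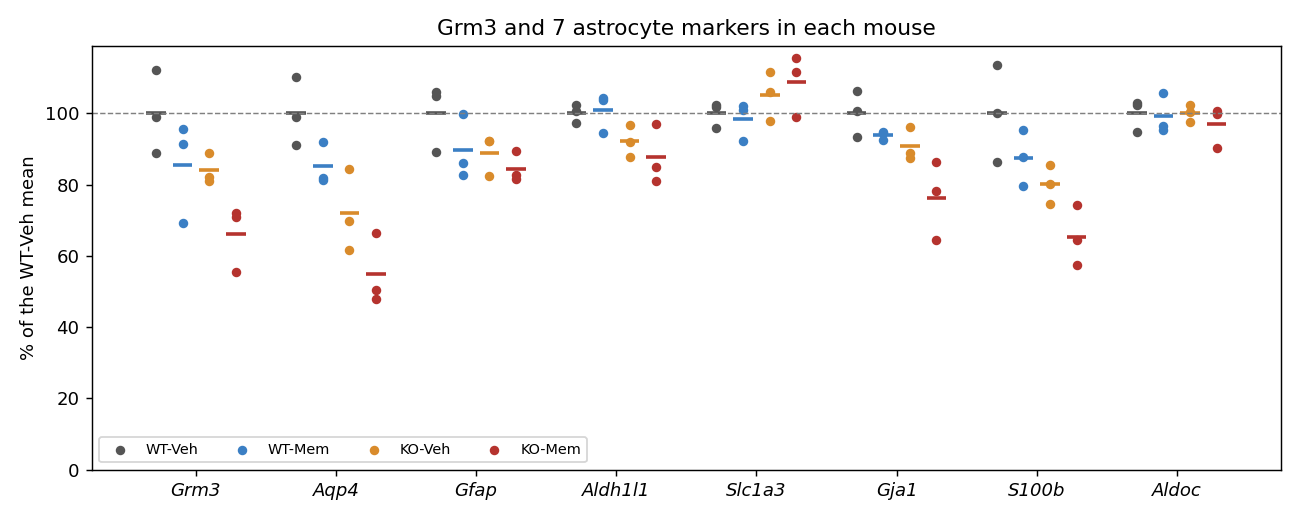
Values of Grm3 and of 7 astrocyte marker genes in each mouse, as a percentage of the WT-Veh mean of that gene (vertical axis, from 0). Points are mice, short bars are group means, and the dashed line is 100%. The means of Grm3, Aqp4, Gja1, and S100b are lowest in KO-Mem mice. Those of Gfap, Aldh1l1, and Aldoc are also lowest there, whereas the mean of Slc1a3 is highest there. KO-Mem mice overlap mice of another group for every gene shown except Gja1 and S100b.

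Grm2, the second group II receptor and mainly a presynaptic autoreceptor of neurons, was highest in WT-Mem and lowest in KO-Mem mice. WT-Veh mice had normalized counts of 1925, 1669, and 1471 (1688 ± 228, SD, n = 3), and WT-Mem mice had 2173, 2187, and 1790 (2050 ± 225, SD, n = 3). KO-Veh mice had 1682, 1709, and 1862 (1751 ± 97.1, SD, n = 3), and KO-Mem mice had 1446, 1599, and 1605 (1550 ± 90.3, SD, n = 3). KO-Mem mice lay below all WT-Mem and all KO-Veh mice but overlapped with WT-Veh mice.

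In Mem-K/W the log2 fold change of Grm2 was -0.40 (SE 0.09, limma adjusted p = 0.0919), short of the threshold. It was called with all 12 mice in a single fit (limma adjusted p = 0.0462) and without KO-Mem replicate 3 (0.0332), and reached 0.292 without KO-Mem replicate 2. The 2 fits that called Grm2 called 636 and 1911 genes, against 12 in the main fit. In KO-M/V the log2 fold change of Grm2 was -0.18 (SE 0.07, limma adjusted p = 0.555), in WT-M/V it was 0.28 (SE 0.11, adjusted p = 0.978), and in WT-M/KO-V it was 0.22 (SE 0.09, adjusted p = 0.537). Memantine thus went with a higher mean in wild-type mice and a lower mean in knockout mice, and the interaction was -0.46 (SE 0.14, unadjusted p = 0.00605, limma adjusted p = 0.9475), which did not pass the correction over 17655 genes. Without KO-Veh replicate 3 the interaction of Grm2 was -0.41 (limma adjusted p = 0.876), and its log2 fold change was -0.13 in KO-M/V (adjusted p = 0.617) and 0.27 in WT-M/KO-V (adjusted p = 0.951). Without KO-Mem replicate 1 it was -0.35 in Mem-K/W (limma adjusted p = 0.277).

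As the means of Grm2 and Grm3 were seen to differ in opposite directions between WT-Mem and WT-Veh mice, their ratio within each mouse is given as a description of normalized counts. It restates those values, and no other pair of genes was examined. The ratio of Grm2 to Grm3 was 1.18, 0.906, and 1.01 in WT-Veh mice and 1.39, 1.46, and 1.57 in WT-Mem mice. It was 1.15, 1.27, and 1.40 in KO-Veh mice and 1.59, 1.38, and 1.36 in KO-Mem mice. The mean ratio was lowest in WT-Veh mice (1.03), and WT-Veh replicate 1 (1.18) lay above KO-Veh replicate 1 (1.15).

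Grm4, a group III receptor on axon terminals that is most abundant in cerebellar granule cells, was lowest in KO-Mem mice and highest in the mouse with cerebellar transcripts. WT-Veh mice had normalized counts of 1992, 2044, and 1619 (1885 ± 232, SD, n = 3), and WT-Mem mice had 1966, 2021, and 1939 (1976 ± 41.6, SD, n = 3). KO-Veh mice had 1915, 1813, and 2270 (1999 ± 240, SD, n = 3), and KO-Mem mice had 1439, 1717, and 1747 (1635 ± 170, SD, n = 3). The KO-Mem mice lay below all WT-Mem and all KO-Veh mice and overlapped with WT-Veh replicate 3.

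In Mem-K/W, which does not use the mouse with cerebellar transcripts, the log2 fold change of Grm4 was -0.28 (SE 0.09, limma adjusted p = 0.130). The limma adjusted p was 0.0481 without KO-Mem replicate 3, in a fit that called 1911 genes, against 12 in the main fit. Without KO-Mem replicate 1 the log2 fold change was -0.19 in Mem-K/W (limma adjusted p = 0.357) and -0.20 in KO-M/V (adjusted p = 0.951). In KO-M/V the log2 fold change of Grm4 was -0.29 (SE 0.10, limma adjusted p = 0.554) with KO-Veh replicate 3 and -0.19 (adjusted p = 0.599) without it. The 4 of 6 members that did not overlap in KO-M/V were 4 of 6 without that mouse as well, beside 27% of all genes. That count could not fall, because leaving out a mouse cannot make separate groups overlap. The interaction of Grm4 was -0.36 (SE 0.15, unadjusted p = 0.0272, limma adjusted p = 0.9475) with that mouse and -0.27 (adjusted p = 0.876) without it.

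**Figure D5:**
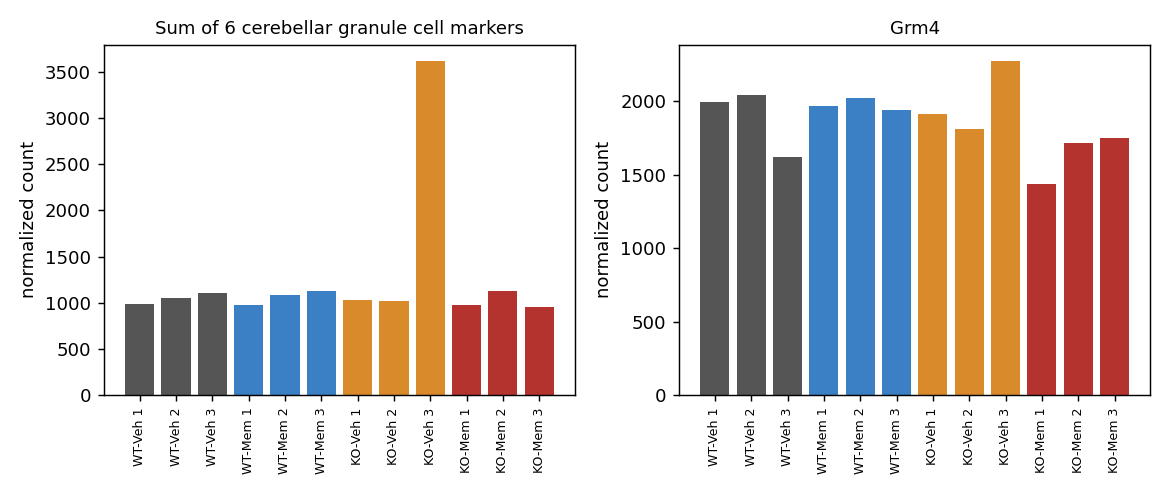
Normalized count in each of the 12 mice (bars, vertical axes from 0), colored by group. The left panel is the sum of 6 markers of cerebellar granule cells, which is 3613 in KO-Veh replicate 3 and between 957 and 1123 in the other 11 mice, and the right panel is Grm4, which is 2270 in that mouse and at most 2044 in the others.

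Grm8, the least abundant of the 6 and a presynaptic group III receptor, was lowest in the KO-Mem mice. WT-Veh mice had normalized counts of 443, 504, and 483 (476 ± 30.8, SD, n = 3), and WT-Mem mice had 432, 452, and 402.5 (429 ± 24.8, SD, n = 3). KO-Veh mice had 426, 453, and 469 (449 ± 21.5, SD, n = 3), and KO-Mem mice had 343.5, 382.5, and 390 (372 ± 25.1, SD, n = 3). The KO-Mem mice lay below the mice of all the other groups without overlap.

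None of the differences of Grm8 passed the adjusted threshold in its own comparison. In KO-M/WT-V the log2 fold change was -0.36 (SE 0.11, limma adjusted p = 0.0790), and with all 12 mice in a single fit it was called (adjusted p = 0.0270). That single fit called 2067 genes, against 595 in the main fit. In KO-M/V the log2 fold change of Grm8 was -0.27 (SE 0.10, limma adjusted p = 0.554), and in Mem-K/W it was -0.20 (SE 0.10, adjusted p = 0.290). Over both treatments the log2 fold change in knockout mice was -0.14 (SE 0.06, limma adjusted p = 0.153), and over both genotypes that with memantine was -0.21 (SE 0.06, adjusted p = 0.4205). Leaving out KO-Veh replicate 3 gave -0.16 (limma adjusted p = 0.165) and -0.19 (adjusted p = 0.575), and -0.24 in KO-M/V (adjusted p = 0.590). Without KO-Mem replicate 1 the log2 fold change of Grm8 in KO-M/WT-V was -0.30 (limma adjusted p = 0.241).

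Grm7, the group III receptor found in the active zone of many terminals, differed least between mice. WT-Veh mice had normalized counts of 1938, 1831, and 1749 (1839 ± 94.6, SD, n = 3), and WT-Mem mice had 1994, 1836, and 1633 (1821 ± 181, SD, n = 3). KO-Veh mice had 1955, 1895, and 1913 (1921 ± 30.6, SD, n = 3), and KO-Mem mice had 2002, 1858, and 1728 (1863 ± 137, SD, n = 3). All 4 groups overlapped, and over both treatments the log2 fold change in knockout mice was 0.05 with a 95% interval from -0.07 to 0.17, and 0.05 without KO-Veh replicate 3.

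Grm5, the group I receptor that Homer proteins tie to Shank scaffolds, had no group that lay apart from another. WT-Veh mice had normalized counts of 5707, 5307, and 5193 (5402 ± 270, SD, n = 3), and WT-Mem mice had 6152, 5842, and 4270 (5421 ± 1009, SD, n = 3). KO-Veh mice had 5763, 5418, and 5524 (5568 ± 177, SD, n = 3), and KO-Mem mice had 5452, 5380, and 5460 (5430 ± 44.1, SD, n = 3). The highest and the lowest of the 12 mice were both WT-Mem mice, and replicate 3 of that group was also the lowest of the 12 for Grm7.

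The intervals bound how large a difference of Grm5 these mice leave room for. In Veh-K/W the log2 fold change of Grm5 had a 95% interval from -0.09 to 0.18, and over both treatments it was 0.03 with an interval from -0.12 to 0.18. Without KO-Veh replicate 3 these values were 0.05 and 0.03. In KO-M/V the interval was from -0.14 to 0.07, around -0.04 with and without that mouse, and in WT-M/V, where the WT-Mem mice spread widely, it was from -0.28 to 0.26.

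The other genes of the receptors' pathways were taken as 5 lists, and the genotype comparison over both treatments, where 10.8% of all genes were called, held nearly all of their calls. Of their 72 genes, 8 were called in it (11.1%), 4 higher and 4 lower, a share close to that of all genes. In the Gq and phospholipase C arm, through which Grm5 signals, 1 of 11 genes was called higher and 0 lower, with a list median of -0.0014 (log2) against 0.0035 for all genes. The gene was Gna11, a Gq-family alpha subunit, with a log2 fold change of 0.21 (SE 0.05, limma adjusted p = 0.0152), called in 12 of 12 fits that left out a mouse. It was also the single pathway gene called in KO-M/WT-V (0.36, limma adjusted p = 0.0422, and called in 1 of 6 fits that left out a mouse). In the Gi/o and cyclase arm, through which the other five receptors signal, 2 of 17 genes were called lower and 0 higher, with a list median of -0.03. These were Gnao1, the Go alpha subunit (-0.14, limma adjusted p = 0.0386, called in 4 of 12 such fits and not after quantile normalization), and Rgs4, which speeds the shut-off of Gi/o and Gq signals (-0.31, adjusted p = 0.0202, called in 10 of 12). Without KO-Veh replicate 3, the limma adjusted p was 0.0960 for Gnao1 and 0.0518 for Rgs4.

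Among 16 receptor-binding proteins, 2 were called higher and 1 lower in knockout mice over both treatments, with a list median of 0.01. Homer1, which ties group I receptors to Shank proteins, had a log2 fold change of -0.36 (SE 0.09, limma adjusted p = 0.0268, called in 7 of 12 fits that left out a mouse), and its group means were 5065 with vehicle and 5217 with memantine in wild-type mice, and 4167 with vehicle and 3903 with memantine in knockout mice. The values count its long and short isoforms together. Caln1, a calcium-binding protein, had a log2 fold change of 0.25 (SE 0.06, limma adjusted p = 0.0226, called in 9 of 12), and Ppm1a, a phosphatase that acts on Grm3, had 0.14 (SE 0.04, adjusted p = 0.0418, called in 3 of 12). Without KO-Veh replicate 3 the limma adjusted p was 0.0697 for Homer1, 0.0599 for Caln1, and 0.0960 for Ppm1a.

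Of 13 effectors of long-term depression by these receptors, 1 was called higher and 1 lower, with a list median of 0.03. Eef2k, the kinase that slows translation elongation and lies downstream of group I receptors, had a log2 fold change of 0.41 (SE 0.09, limma adjusted p = 0.0151, called in 12 of 12 fits that left out a mouse). Ptpn5, the striatal-enriched phosphatase STEP, had -0.18 (SE 0.05, limma adjusted p = 0.0385, called in 6 of 12, and 0.0883 without KO-Veh replicate 3). Arc, an immediate early gene, had the largest estimate of the list and was not called (-1.25, SE 0.40, limma adjusted p = 0.0578), with group means of 7147 ± 4652 for vehicle and 8017 ± 1625 for memantine in wild-type mice, and 3937 ± 2415 for vehicle and 2904 ± 1811 for memantine in knockout mice (SD, n = 3 each). Of 15 genes that supply or clear glutamate and N-acetylaspartylglutamate, the peptide agonist of Grm3, 0 were called at the adjusted threshold of limma and 4 had an unadjusted p under 0.05, 2 in each direction, beside 5200 of all 17655 genes. Folh1, the enzyme that cleaves that peptide, had a log2 fold change of -0.42 (SE 0.15, limma adjusted p = 0.0727) and was called in 0 of 12 fits that left out a mouse. Slc17a8 had a smaller p (-0.32, SE 0.10, limma adjusted p = 0.0572), and Slc17a5 had 0.14 (SE 0.06, adjusted p = 0.120). In KO-M/WT-V, 1 of the 72 genes of the 5 lists was called, beside 3.37% of all genes. There, 19 of the 72 had an unadjusted p under 0.05, beside 4566 of all 17662 genes. In each comparison other than KO-M/WT-V and the genotype fit, limma called 0 of the 72 at the adjusted threshold, and from 3 to 18 of them had an unadjusted p under 0.05, beside 3.97% to 21.0% of all genes.

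As a description of which transcripts varied with each receptor, the log2 values of 12877 genes with a mean of at least 100 were correlated with those of the members over the 12 mice. The mice share groups, tissue dissection, and library preparation, and no test was made. Grm3 was most like Lrp4 (Pearson r = 0.966), Specc1 (0.962), and Podxl (0.943), and Grm8 was most like Fnbp1 (0.944), Olfml3 (0.932), and Bche (0.926). Grm2 was most like Snap91 (0.925), Calb1 (0.918), and Ppm1l (0.911), and Grm4 was most like Me1 (0.885), Mturn (0.877), and Capza1 (0.874). Grm5 was most like Plxna4 (0.965), Lrrc7 (0.950), and Hectd4 (0.947), and Grm7 was most like Il1rapl1 (0.891), Taok1 (0.886), and Gm2026 (0.884). When the group means were subtracted first, Plxna4 remained among the 3 genes most like Grm5, and 0 of 3 remained for each other member. Among the members, r was highest for Grm3 with Grm8 (0.866), Grm5 with Grm7 (0.782), and Grm2 with Grm4 (0.735), and it was 0.607, 0.784, and 0.698 for these pairs after the group means were subtracted.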

How the data were processed

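RNA-Seq libraries (TruSeq, poly-A selected, taken as not stranded) were made from 3 mice in each of the 4 groups. Per the labels and the methods, the authors quantified transcripts with Salmon 1.1.0 on GRCm38 with GC bias correction, summed them to genes with tximport, and deposited signal values, which are estimated counts divided by DESeq2 normalization factors over the 12 mice. The submitters' processing notes name R 3.6.2 and DESeq2 1.26.0. The annotation release and any filter on genes are not given in the sources used here. The values are not whole numbers, so read depth is not known exactly and count tests planned for raw counts were not used. Of 19312 genes, 19295 matched GENCODE M21, which gave symbols, positions, and lengths.

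Values were tested on the log2(value + 1) scale with limma 3.58.1 in R 4.3.3 (lmFit and eBayes with trend), for genes whose mean in the fitted mice was at least 10, with Benjamini-Hochberg adjustment over all genes tested. Fold changes on this scale understate those of low genes. Each of 6 pairwise comparisons used its own 6 mice with no covariate. Genotype (with a treatment term), memantine (with a genotype term), and their interaction used all 12 mice. The test was checked on simulated data: of 200 genes changed 1.5-fold, it recovered 81.5% in Veh-K/W, 82.5% in KO-M/WT-V, and 99.5% in the genotype fit. In the simulation every gene had the same dispersion, no mouse stood apart, and genes of low mean were not among those changed. These shares therefore do not give the recovery in the real data, where single mice shifted the calls, or for smaller changes. Alternatives were a pseudocount of 5, a mean of at least 50, no filter, 12 mice in 1 fit, quantile normalization, a replicate block, and leaving out each mouse. The alternatives for members without overlap and for pathway genes were chosen after seeing the data.

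Every member is given with the value of each mouse. Fold changes of a member are given where its groups did not overlap or its unadjusted p was under 0.05, and otherwise as intervals of a few comparisons. Each pathway gene named was called or among the 3 smallest p of its list in the genotype fit, and not all of the latter are named. The members and lists were chosen with earlier results of these data known. No other receptor of the family is reported here.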

Additional observations from a re-analysis of the deposited data

How the results depend on the processing

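No member's fold change given above with a p changed sign under any alternative: of 258 such values, 241 stayed on the same side of the threshold, 4 became called, and 13, all of Grm3 with a mouse left out, were no longer called. Most of the 258 belong to fold changes not called in the main fit, which had no call to lose. The calls of Grm3 were kept in 1 of 6 fits that left out a mouse in KO-M/WT-V and in 4 of 12 over both treatments. Of those given without a p, the interaction of Grm3 reached 0.0016 without KO-Mem replicate 1, and the genotype value of Grm5 lay between -0.04 and 0.08 with a mouse left out. With 12 mice in 1 fit, Mem-K/W called 636 genes and 1 member (Grm2), KO-M/WT-V called 2067 genes and 2 members (Grm3 and Grm8), Veh-K/W called 2, and WT-M/V called 0. With a pseudocount of 5, Veh-K/W called 3 genes and WT-M/V 1, and with a mean of at least 50 they called 2 and 0. Quantile normalization left 1 gene in WT-M/V and put 1 member (Grm3) without overlap in Veh-K/W.

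Replicate numbers are shared between groups but do not pair the mice: the deviations of same-numbered mice correlated between -0.175 and 0.0802. With a replicate block, Veh-K/W called 2 genes, Mem-K/W 4, WT-M/V 1, KO-M/WT-V 999, and WT-M/KO-V 2, and no call of a member changed.

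With each mouse left out in turn, Veh-K/W called from 2 to 53 genes (53 without KO-Veh replicate 2), Mem-K/W from 2 to 1911, KO-M/V from 0 to 97, and KO-M/WT-V from 1 to 2490, the last 3 highest without KO-Mem replicate 3. WT-M/V called from 1 to 3, WT-M/KO-V from 1 to 5, the genotype fit from 694 (without KO-Veh replicate 3) to 2683, and the interaction from 0 to 4. Members called ranged from 0 to 2 in Mem-K/W and from 0 to 1 in KO-M/WT-V and the genotype fit. Members without overlap ranged from 0 to 4 in Veh-K/W, 3 to 5 in Mem-K/W, 4 to 5 in KO-M/V, 0 to 2 in WT-M/V, 2 to 4 in KO-M/WT-V, and 0 to 3 in WT-M/KO-V. As leaving out a mouse cannot lower such a count, these ranges do not test how firm it is. The share of all genes rose too, to 34.9% where Veh-K/W had 4 such members and 40.8% where Mem-K/W had 5. It was 22.8% and 19.8% where KO-M/V had 5, and 21.3% and 24.4% where WT-M/V had 2. It was 42.7% where KO-M/WT-V had 4, and 28.2% where WT-M/KO-V had 3. The cause of these shifts was not tested. Precision is limited by 3 mice per group, and the lowest value of any member in any mouse was 343.5 (Grm8), where 1 read is only roughly estimated to be worth about 1.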
